A study of Mus musculus with 8 samples.

Results

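The genes described here encode the surface proteins by which common myeloid progenitors (CMPs) are told apart from their neighbours in the bone marrow. They were chosen by name from 10 gene names. Kit, Cd34, Fcgr2b, Fcgr3 and Ly6a encode antigens of the CMP gate itself, and Il7r encodes an antigen stained in the same sort, which also collected lymphoid progenitors, whereas Slamf1, Cd48, Eng and Ly6c2 mark finer subsets of stem and progenitor cells. The names were chosen with earlier results of these data known. Every probe that carried 1 of these names on the array was taken, whatever its value. This gave 11 probes for 9 of the 10 names, out of 55681 probes in all, and no probe carried the name Ly6c2.

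RNA came from CMPs of young and old C57BL/6J mice, all wildtype and untreated, and was hybridized in 1 colour to 8 arrays, 4 per age. The sample labels give young mice as 2-3 months and old mice as 22-24 months of age, while the series design gives 3-4 and 22-26 months. The arrays outnumber the mice per age that the methods describe, so p-values measure the spread between these samples only. According to the methods, the cells were bone marrow cells without lineage antigens, positive for c-Kit, negative for Sca-1, positive for CD34 and low for the Fcγ receptors, after magnetic enrichment for c-Kit.

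c-Kit, the receptor for stem cell factor, is carried by nearly all early hematopoietic cells. Within the c-Kit-positive, Sca-1-negative compartment, CD34 and the Fcγ receptors III and II divide CMPs from granulocyte-monocyte progenitors, which are CD34-positive and high for the Fcγ receptors, and from megakaryocyte-erythroid progenitors, which are low for both. Sca-1 marks the stem cell compartment, and the IL-7 receptor α-chain marks lymphoid progenitors. CD150, CD48, endoglin and Ly6C are used to split these gates further, CD150 and endoglin mostly toward stem, megakaryocyte and erythroid progenitors and Ly6C mostly toward monocyte progenitors. A gate is set on protein at the cell surface, while the arrays measured RNA.

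The probes are 60 bases long, and 4 of them are shown because they belong to genes with close relatives or to genes the results turn on. Each is given 5′ to 3′ as it is printed on the array, and each is free of stop codons in at least 1 forward frame. The exon or untranslated region under a probe was not analysed here, since no gene models of the mouse build mm9 were used.

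Fcgr3: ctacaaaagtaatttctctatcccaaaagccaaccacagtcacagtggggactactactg
Cd34: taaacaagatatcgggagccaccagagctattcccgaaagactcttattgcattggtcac
Cd48: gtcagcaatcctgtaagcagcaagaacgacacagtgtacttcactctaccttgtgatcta
Ly6c1: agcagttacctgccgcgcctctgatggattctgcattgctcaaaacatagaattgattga

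In mm9 the Fcgr3 probe lies at chr1:172984129-172984188 on the minus strand, the Cd34 probe at chr1:196785280-196785339 on the plus strand, the Cd48 probe at chr1:173629721-173629780 on the plus strand and the Ly6c1 probe at chr15:74877785-74877844 on the minus strand. Ly6c1 is no member of the list, but it is the closest relative of Ly6c2 on the array. The probes of Fcgr2b and Fcgr3, whose products share an antibody, had no common run longer than 6 bases, and the same was true of Ly6a and Ly6c1. No probe of the marker genes shared a run of 20 bases with any other probe on the array. Probes were compared with probes only, so whether a probe binds the transcript of a related gene was not tested.

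Levels are given as log2 of the background-corrected signal minus the 75th percentile of the array, so that 0 is the signal at that percentile. A level belongs to its probe and cannot be set against the level of another probe. Array values are listed in the order young replicates 3, 4, 5 and 6, then old replicates 2, 3, 4 and 5. Fold changes are old over young, with the standard error and the 95% interval of limma and a Benjamini-Hochberg adjusted p over all 33495 tested probes, those marked as well above background on 4 or more of the 8 arrays. A change was called at an adjusted p under 0.05 with a change of at least 1.5-fold. The 75th percentile was at a signal of 352 to 565 on young and 290 to 518 on old arrays, the share of probes well above background was 55.7% to 63.2%, and no spot was saturated.

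None of the 8 marker genes that could be tested was called changed in either direction, against 0.191% of all tested probes, 0.158% called higher and 0.0328% called lower in old CMPs. Their RNA stood on both sides of 0, with 3 genes higher and 5 lower in old CMPs. The median log2 fold change was -0.18, compared with -0.02 over all tested probes. Ly6a, encoding Sca-1, was the single marker gene whose young and old arrays did not overlap, where 4.44% of all tested probes showed no overlap, and also the single one with an unadjusted p under 0.05 in limma, as had 6.35% of all tested probes (3.61% higher and 2.73% lower in old CMPs). In 5 of the 8 genes the 95% interval of the brightest probe lay within 2-fold in either direction. In bulk RNA, fewer cells that carry a transcript and less transcript per cell cannot be told apart.

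**Figure D1:**
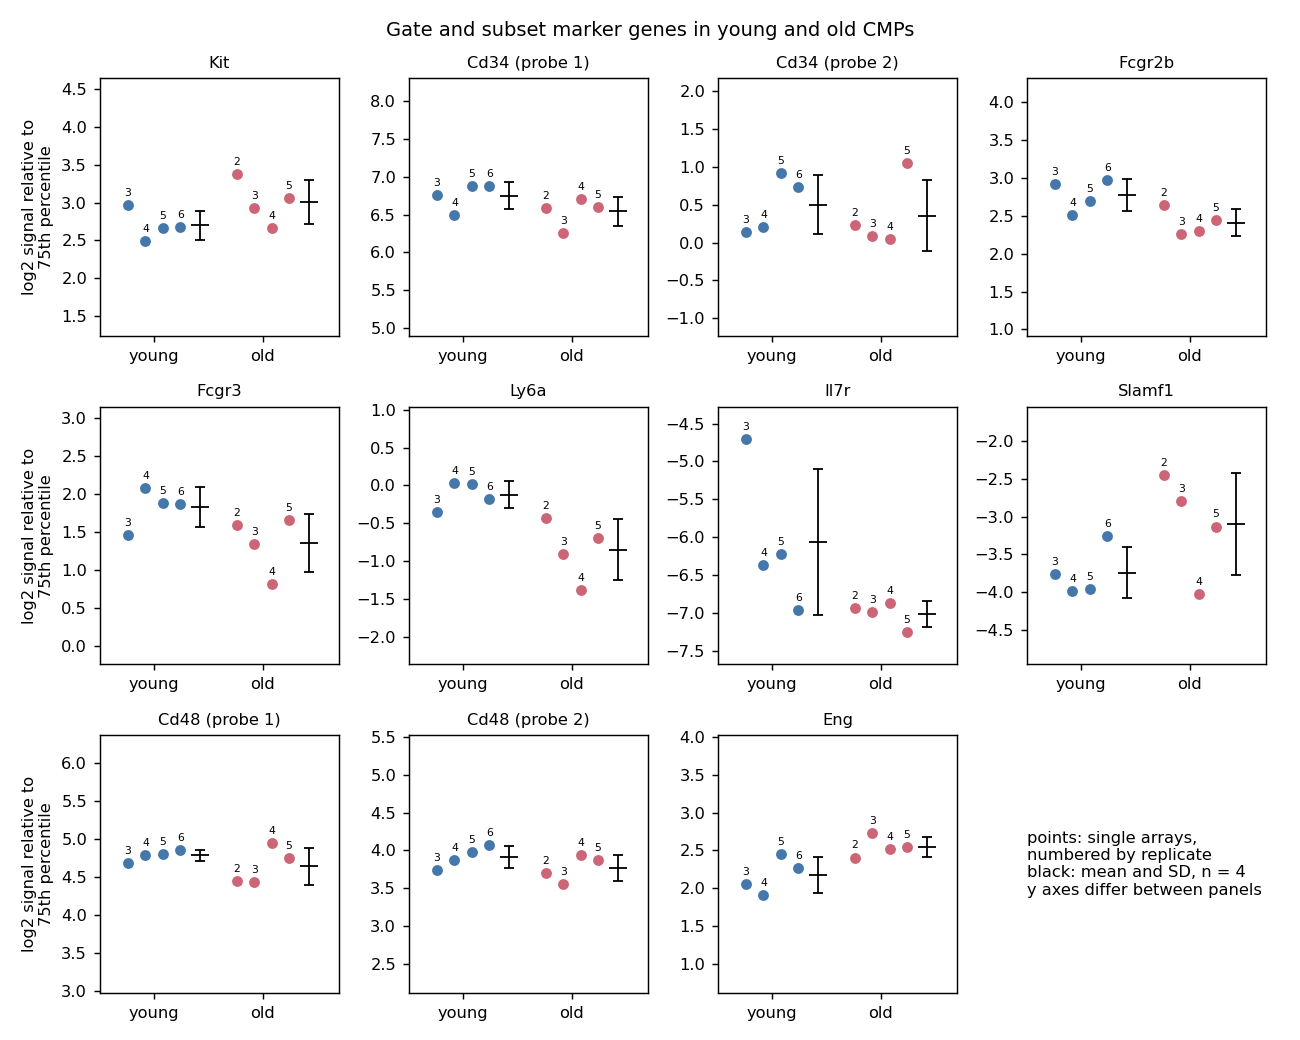
Log2 level (signal over the 75th percentile of its array) for each of the 11 marker probes, with 1 point per array numbered by replicate, and the mean and SD of the 4 arrays of each age in black; the y axes differ between panels. The young and old points overlap for every tested probe except that of Ly6a, and Il7r lies near the floor on 7 of 8 arrays.

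The gate requires c-Kit and CD34 and requires the Fcγ receptors to be low, and the genes of all of these were transcribed well above background on every array. Kit encodes the stem cell factor receptor, a receptor tyrosine kinase, and has 1 probe at chr5:76052394-76052453 (mm9, plus strand), printed as 2 spots. Its log2 level was 2.96, 2.50, 2.66 and 2.68 in young and 3.38, 2.92, 2.67 and 3.06 in old CMPs. The highest old array stood above all young arrays, while old replicate 4 lay inside the young range. Old over young this was a log2 fold change of 0.31 (SE 0.20, 95% interval -0.15 to 0.76, limma adjusted p = 0.998). On each of the array slides, which held 2 arrays of each age, the old arrays were higher, by 0.29 and 0.32 on the log2 scale.

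CD34 is a sialomucin of stem and progenitor cells and of endothelium, and its gene was read by 2 probes. The brighter probe, at chr1:196787392-196787451 (plus strand), had log2 levels of 6.76, 6.49, 6.88 and 6.88 in young and 6.59, 6.26, 6.71 and 6.60 in old CMPs. The ranges overlapped, with old replicate 3 as the lowest array of all. Its log2 fold change was -0.21 (SE 0.18, 95% interval -0.61 to 0.20, limma adjusted p = 0.998). Within slides it was 0.03 on slide 1 and -0.44 on slide 2, with 2 arrays of each age per slide, and a difference between the slides was not tested. The probe printed above, which lies upstream of the brighter one, gave 0.14, 0.21, 0.92 and 0.73 in young and 0.23, 0.09, 0.04 and 1.05 in old CMPs. Both ages held low and high arrays on this probe, and its log2 fold change of -0.15 was smaller than its SE of 0.28 (-0.04 on slide 1 and -0.26 on slide 2). It turned to 0.10 at most when arrays were left out, positive in 5 of 24 such fits.

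The low-affinity IgG receptors followed next. FcγRIIb, the inhibitory receptor encoded by Fcgr2b, and FcγRIII, the activating receptor encoded by Fcgr3, are stained together by the antibody used in this gate. The Fcgr2b probe at chr1:172890988-172891047 (minus strand) is printed as 10 spots, which agreed within an SD of 0.04 to 0.11 on the log2 scale on a single array. Its log2 level was 2.92, 2.51, 2.69 and 2.98 in young and 2.64, 2.25, 2.30 and 2.45 in old CMPs. Of the old arrays 3 lay below every young array and old replicate 2 lay among them. Fcgr2b thus had a log2 fold change of -0.36 (SE 0.18, 95% interval -0.78 to 0.05, limma adjusted p = 0.895).

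For Fcgr3 the log2 level was 1.46, 2.09, 1.89 and 1.88 in young and 1.60, 1.34, 0.81 and 1.66 in old CMPs. The lowest young array, replicate 3, fell among the old arrays, and old replicate 4 stood apart at the bottom. For the whole groups the log2 fold change was -0.47 (SE 0.24, 95% interval -1.001 to 0.05, limma adjusted p = 0.879). Between leave-out fits it ran from -0.70 to -0.21. Both Fcγ receptor genes were below 0 on both slides, with log2 differences of -0.24 and -0.48 in Fcgr2b and of -0.57 and -0.38 in Fcgr3, and neither passed the test. The γ-chain Fcer1g, the signalling subunit that FcγRIII needs at the surface, was at 5.41, 5.22, 5.19 and 5.07 in young and at 5.25, 4.86, 4.52 and 4.62 in old CMPs. Its log2 fold change of -0.41 (SE 0.20, limma adjusted p = 0.877) was not called either.

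Ly6a encodes Sca-1, a GPI-anchored protein of the Ly6 family and the antigen among these that the gate requires to be absent. Although the cells were gated for the absence of Sca-1, the Ly6a probe at chr15:74825553-74825612 (minus strand) was well above background on all 8 arrays. The log2 level was -0.35, 0.03, 0.02 and -0.18 in young and -0.43, -0.90, -1.38 and -0.69 in old CMPs. Every old array lay below every young array, by a narrow gap between young replicate 3 and old replicate 2, with old replicate 4 lowest. The log2 fold change was -0.73 (SE 0.23, 95% interval -1.24 to -0.22), that is 1.66-fold lower in old CMPs with an interval of 1.17 to 2.36-fold. The unadjusted p in limma was 0.00970 and the adjusted p 0.413, so the difference did not pass the test over all probes. It was -0.75 on slide 1 and -0.71 on slide 2, and ran from -0.94 to -0.50 when arrays were left out.

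Il7r encodes the IL-7 receptor α-chain, which also serves the receptor for TSLP. Its probe at chr15:9435976-9436035 (minus strand) was well above background on 1 array, young replicate 3, and was therefore not tested. The log2 level was -4.70, -6.37, -6.22 and -6.96 in young and -6.94, -6.99, -6.87 and -7.26 in old CMPs. Apart from young replicate 3, the values sat at the bottom of the measured range at both ages. Since no old array and only 1 young array measured the transcript, these values give no fold change between the ages.

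**Figure D2:**
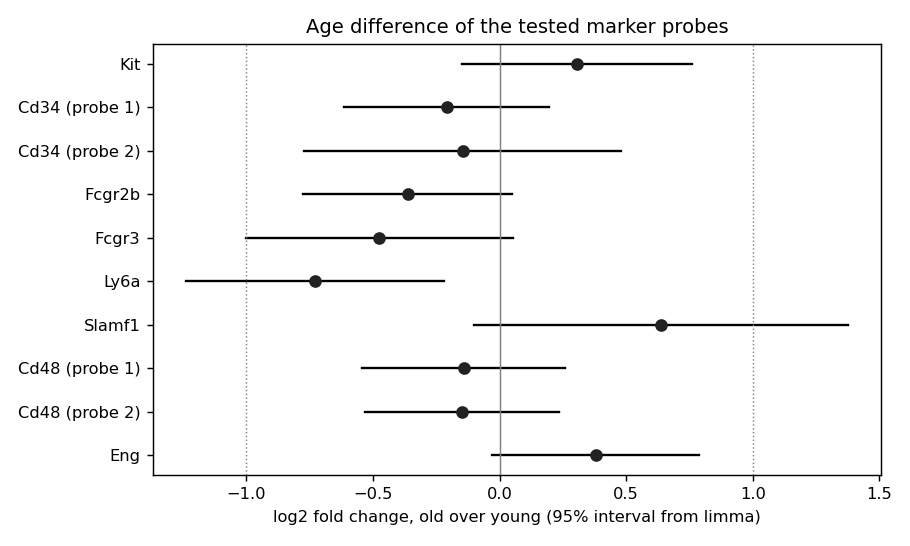
Log2 fold change of old over young CMPs for the 10 tested marker probes, with the 95% interval of limma as a line; dotted lines mark 2-fold in either direction. The interval of Ly6a, from -1.24 to -0.22, is the single one that does not include 0, and that of Slamf1 is the widest.

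The finer subset markers gave no call either. Slamf1 encodes CD150, the founding receptor of the SLAM family and the antigen by which long-term stem cells and megakaryocyte-biased progenitors are sorted. The probe at chr1:173730343-173730402 (plus strand) was dim, and was well above background on 7 arrays but not on young replicate 5. Its log2 level was -3.76, -3.99, -3.95 and -3.26 in young and -2.45, -2.80, -4.02 and -3.13 in old CMPs. In 3 of the 4 old arrays the level exceeded all young arrays, whereas old replicate 4 was the lowest of all 8. The log2 fold change was 0.64 (SE 0.33, 95% interval -0.10 to 1.38, limma adjusted p = 0.903), the highest of the marker genes. Leave-out fits gave 0.34 to 1.11 on the log2 scale. Both slides gave a log2 difference of 0.64.

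CD48, a GPI-anchored SLAM family protein and ligand of CD244, is carried by most progenitors downstream of stem cells. Its brighter probe, at chr1:173635201-173635260 (plus strand), had log2 levels of 4.68, 4.79, 4.81 and 4.85 in young and 4.44, 4.44, 4.94 and 4.75 in old CMPs. The young arrays were close together, and the old arrays spread to both sides of them. This probe had a log2 fold change of -0.14 (SE 0.18, 95% interval -0.54 to 0.26, limma adjusted p = 0.998). The probe printed above gave 3.74, 3.88, 3.98 and 4.08 in young and 3.70, 3.56, 3.94 and 3.87 in old CMPs, a log2 fold change of -0.15 (SE 0.17). The Cd48 probes thus gave nearly equal differences, both smaller than their errors. By slide the brighter probe differed by -0.05 and -0.24, and the other by 0.02 on slide 1 and -0.31 on slide 2, a change of sign.

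Eng encodes endoglin, a co-receptor for TGF-β and BMP ligands that is found on endothelium, stem cells and early erythroid progenitors. The probe at chr2:32537268-32537327 (plus strand) had log2 levels of 2.05, 1.91, 2.45 and 2.26 in young and 2.41, 2.73, 2.52 and 2.54 in old CMPs. A single pair of arrays, young replicate 5 and old replicate 2, kept the ages from separating. Eng gave a log2 fold change of 0.38 (SE 0.18, 95% interval -0.03 to 0.79, limma adjusted p = 0.860). By slide the old arrays were higher by 0.48 and 0.28.

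Among the markers no array was at 1 end throughout. Old replicate 4 was the lowest old array in 4 of the 8 tested genes, namely Kit, Fcgr3, Ly6a and Slamf1, and the highest in 2, namely Cd34 and Cd48. Young replicate 4 was the lowest young array in 5 of 8 genes. In simulated arrays each probe had independent noise at the spread that limma estimated, and 50 of 33455 probes were changed at each size. Of the changed probes 2% were called at 1.5-fold and 10% at 2-fold, compared with 88% at 4-fold, and 8 unchanged probes were called. A call needs an estimate of at least 1.5-fold, which only Ly6a (1.66-fold lower) and Slamf1 (1.56-fold higher) reached among the marker genes. Changes smaller than 1.5-fold were not simulated. Deviations shared by the probes of an array were not simulated.

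Ly6c2 itself had no probe under its name. Its neighbour Ly6c1 encodes the near-identical Ly6C1, which is found on endothelium, and whether its probes also bind Ly6c2 transcripts was not tested. The brighter Ly6c1 probe, at chr15:74875495-74875554 (minus strand), had log2 levels of 6.16, 6.15, 5.93 and 5.66 in young and 5.35, 4.59, 3.32 and 4.58 in old CMPs. The probe printed above gave 4.47, 4.46, 4.22 and 4.05 in young and 3.59, 2.93, 1.21 and 2.80 in old CMPs. On both probes every old array lay below every young array, with old replicate 4 lowest and old replicate 2 highest among the old, as at Ly6a. The log2 fold changes were -1.52 (SE 0.37, limma adjusted p = 0.219) and -1.66 (SE 0.43, limma adjusted p = 0.249), not called. With another background correction, normexp, the brighter probe was called (log2 fold change -1.59, limma adjusted p = 0.0420).

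The Ly6 genes lie together on chromosome 15. Of 11 further Ly6 family genes tested, all 11 had a log2 fold change below 0 on their brightest probe. A dimmer probe of Lynx1 was at 0.38. None of the 11 genes was called and 1, Ly6c1, had an unadjusted limma p under 0.05. The median was -0.17 and the range -1.52 to -0.08, from Ly6c1 to Ly6e, a Ly6 protein of most blood cells. The Ly6e level was 6.23 to 6.96 in young and 6.21 to 6.62 in old CMPs. The stretch of 882 kb at chr15:74546879-75428543 holds these genes. Of 22 tested probes besides Ly6a there, the Ly6 family probes among them, 20 were below 0. None was called and 6 had an unadjusted limma p under 0.05. The median log2 fold change was -0.39, against -0.02 over all tested probes. In the 6 probes from Ly6c1 to 9030619P08Rik every old array was below every young array, where 1.58% of all tested probes showed this order.

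These 6 probes belong to 5 gene names, and they were picked out after their values were seen. I830127L07Rik, named Ly6a2 in current RefSeq, ran from -1.69 to -1.18 in young and from -4.11 to -2.18 in old CMPs on the log2 scale (log2 fold change -1.55, limma adjusted p = 0.189). Gm3142 ran from -2.66 to -2.23 in young and from -5.79 to -2.99 in old CMPs (log2 fold change -1.65, limma adjusted p = 0.391). The transcript ENSMUST00000089689 gave a log2 fold change of -1.66 (limma adjusted p = 0.170) and 9030619P08Rik one of -0.79 (limma adjusted p = 0.361). Old replicate 4 was the lowest array in each of the 5, and Ly6 sequences are similar enough that probes in this stretch may share transcripts, which was not tested.

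**Figure D3:**
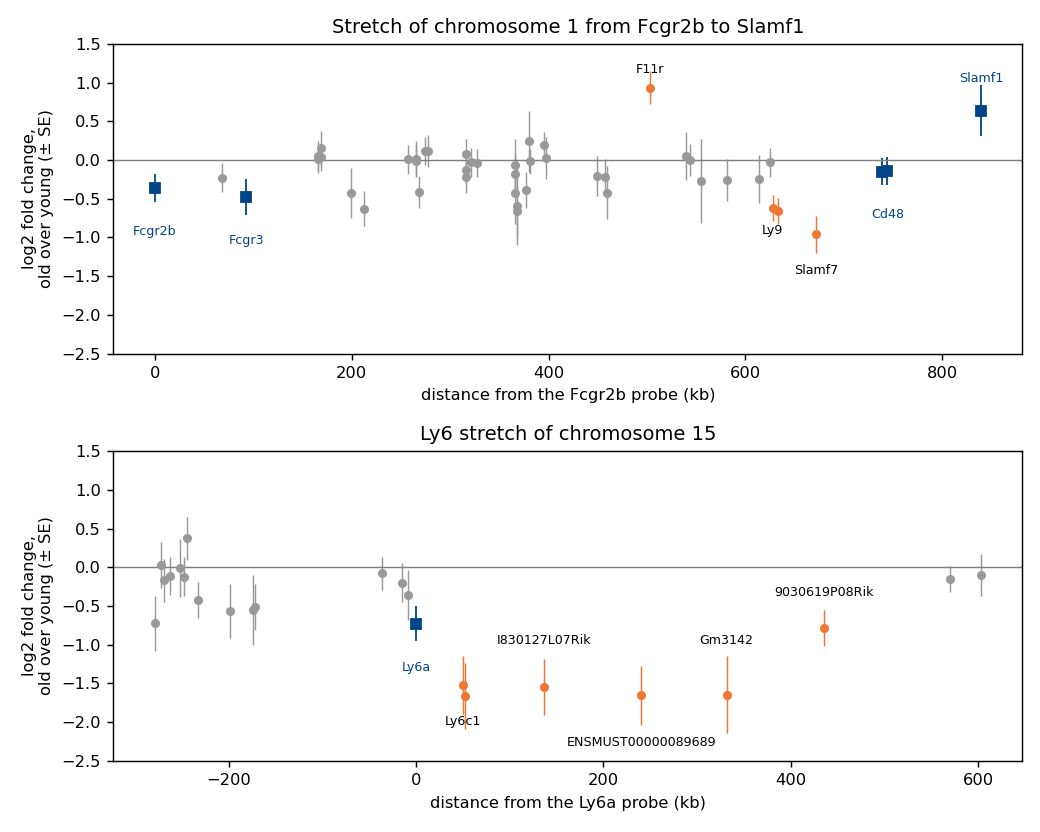
Log2 fold change of old over young CMPs, with the SE of limma, for tested probes against their distance in kb from the Fcgr2b probe (top) and the Ly6a probe (bottom); blue squares are marker genes, orange points are other genes whose young and old arrays do not overlap. In the bottom panel 20 of 22 neighbours lie below 0, and in the top panel 27 of 41 do, with a median of -0.07.

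Fcgr2b, Fcgr3, Cd48 and Slamf1 share a stretch of chromosome 1 with the SLAM genes Cd244, Ly9 and Slamf7 and the Fc receptor genes Fcgr4 and Fcer1g. Over the 839 kb at chr1:172890988-173730402, from the Fcgr2b to the Slamf1 probe, 41 other probes were tested, of which 14 were above 0, 27 below and none called, while 5 had an unadjusted limma p under 0.05. The SLAM family besides Slamf1 and Cd48 divided evenly, with 4 of 8 genes above and 4 below 0, none called, 2 (Slamf7 and Ly9) at an unadjusted limma p under 0.05 and a median log2 fold change of 0.01. Slamf7, a receptor of NK and plasma cells, was dim, at -3.34, -4.24, -4.09 and -4.12 in young and -4.90, -5.21, -4.58 and -4.93 in old CMPs. It was well above background on 4 young but only 2 old arrays, so the old level was measured only in part. On these values its ages did not overlap, and the log2 fold change was -0.96 (SE 0.24, limma adjusted p = 0.232).

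Ly9, encoding CD229, ran from -1.23 to -0.88 in young and from -1.78 to -1.47 in old CMPs. Its log2 fold change of -0.62 (SE 0.17, limma adjusted p = 0.289) was met by -0.66 on a further probe, and both probes kept the ages apart. Cd244, the CD48 receptor and the brightest probe of this list, ran from 2.60 to 3.05 in young and from 2.58 to 3.13 in old CMPs. The young and old ranges thus coincided, and the log2 fold change was -0.03.

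The other Fc receptors held the single called gene among the relatives of the markers. Of 9 tested genes 3 were above and 6 below 0, with a median log2 fold change of -0.03. Fcer1a encodes the α-chain of the high-affinity IgE receptor, carried by mast cells and basophils, and had log2 levels of -2.69, -3.49, -2.31 and -3.06 in young and -0.91, -0.91, -0.08 and 0.34 in old CMPs. Every old array stood far above every young array. The log2 fold change was 2.50 (SE 0.35, limma adjusted p = 0.0293), 5.65-fold with a 95% interval of 3.30 to 9.68-fold. The call did not hold with slide as a block (limma adjusted p = 0.0501), with the replicate number as a block (limma adjusted p = 0.101), without the filter on dim probes (limma adjusted p = 0.0943) or in 22 of 24 fits with arrays left out, while the log2 fold change was 2.05 to 2.86 in the latter. Nor did it hold in the methods' t-test with adjustment, which called no gene. With normexp the log2 fold change was smaller, at 1.69 (limma adjusted p = 0.00422). Ms4a2, the β-chain of the same receptor, was at -1.48 to -0.56 in young and -0.68 to 0.05 in old CMPs (log2 fold change 0.71, limma adjusted p = 0.538).

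**Figure D4:**
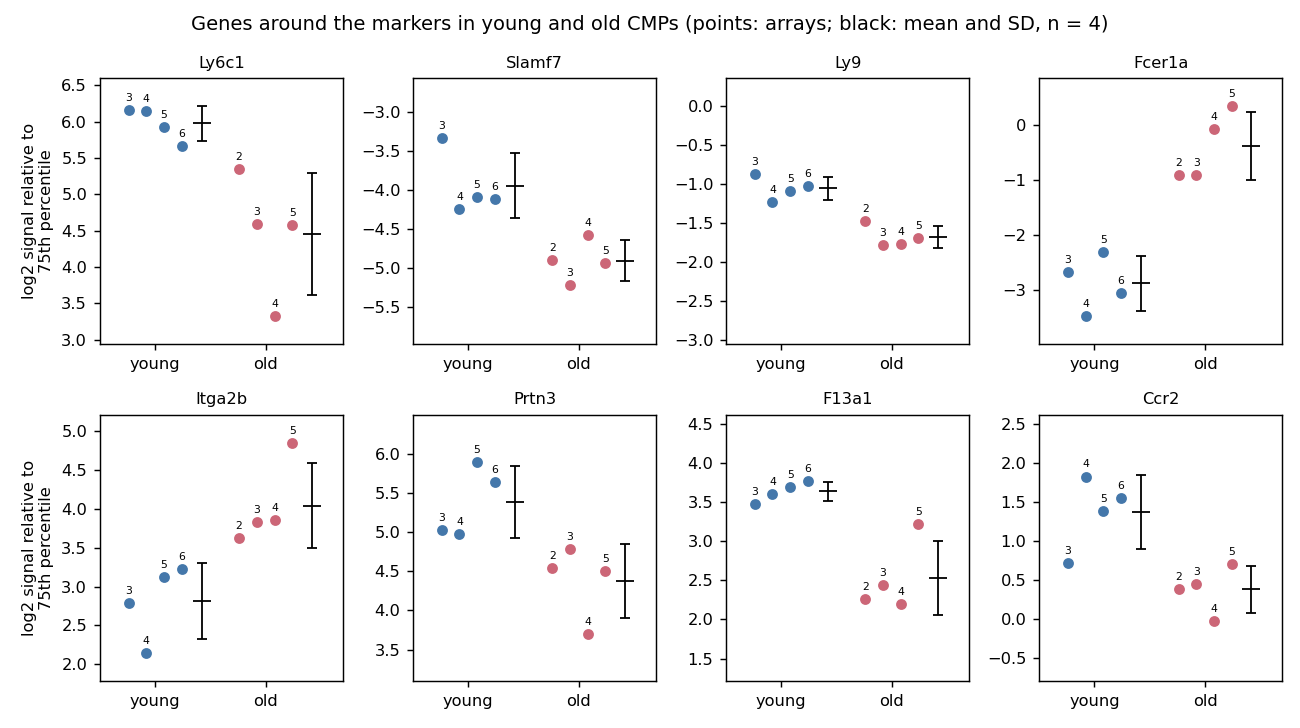
Log2 level (signal over the 75th percentile of its array) for 8 genes around the markers, with 1 point per array numbered by replicate and the mean and SD of the 4 arrays of each age in black; the y axes differ between panels. The 8 genes were picked for ages that do not overlap, as in 4.44% of all tested probes, and Fcer1a is the called one.

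Ligands and signalling partners of the marker proteins were measured for 12 of 15 genes, of which 8 were above and 4 below 0, none called, 2 at an unadjusted limma p under 0.05 (Crlf2 and Sh2d1b1), with a median log2 fold change of 0.23. Crlf2, the TSLP receptor chain that pairs with the IL-7 receptor α-chain, had log2 levels of 5.37 to 5.78 in young and 5.88 to 6.16 in old CMPs. Its ages did not overlap, and the log2 fold change was 0.45 (SE 0.17, limma adjusted p = 0.615). Tslp itself was dim and variable, at -5.50 to -3.16 in young and -4.08 to -3.45 in old CMPs (log2 fold change 0.64, SE 0.42). Sh2d1b1, encoding the SLAM adaptor EAT-2, ran from -3.33 to -2.34 in young and from -4.09 to -3.27 in old CMPs (log2 fold change -0.85, limma adjusted p = 0.450).

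The sort also stained antigens other than these markers, and 5 of 7 of their genes could be tested. None was called, 1 (Ptprc) had an unadjusted limma p under 0.05, 1 was above and 4 were below 0, and the median log2 fold change was -0.52. Flt3, the receptor of lymphoid-primed progenitors, was at 2.34, 1.10, 2.13 and 2.17 in young and 1.12, 0.93, 1.40 and 1.80 in old CMPs. Young replicate 4 lay among the old arrays, and the log2 fold change was -0.62 (SE 0.30, limma adjusted p = 0.867). Ptprc, the gene of CD45 and its B220 form, gave -0.60 (limma adjusted p = 0.714). Itgam, the CD11b integrin of myeloid cells and the brightest probe of this list, ran from 4.55 to 5.14 in young and from 4.52 to 5.44 in old CMPs.

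Surface proteins that are used elsewhere to divide myeloid progenitors were tested for 15 of 16 genes, with 8 above and 7 below 0, none called, 5 at an unadjusted limma p under 0.05 and a median log2 fold change of 0.09. Itga2b, the platelet integrin CD41, was at 2.79, 2.14, 3.12 and 3.23 in young and 3.63, 3.83, 3.86 and 4.85 in old CMPs. All 4 old arrays stood above every young array, and the log2 fold change was 1.22 (SE 0.32, limma adjusted p = 0.271). Csf3r, the G-CSF receptor and the brightest probe here, ran from 6.90 to 7.60 in young and from 6.84 to 7.57 in old CMPs.

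Markers of the cell types that border on the CMP gate were read beside the surface markers. Their lists were also chosen with earlier results of these data known. Megakaryocyte genes were above 0 in 11 of 12 cases with a median log2 fold change of 1.14, 11 had an unadjusted limma p under 0.05, and the mean log2 level of the list was -0.14 to 0.62 in young and 1.23 to 1.41 in old CMPs. Gp9, a subunit of the platelet von Willebrand factor receptor, was the single one called (log2 fold change 1.21, SE 0.17, limma adjusted p = 0.0327), while Ppbp (1.77, limma adjusted p = 0.234) and Pf4 (1.36, limma adjusted p = 0.130), both platelet chemokines, were not. The Gp9 call was lost with slide as a block (limma adjusted p = 0.0631), with the replicate number as a block (limma adjusted p = 0.597), without the filter on dim probes (limma adjusted p = 0.129) and in all 24 fits with arrays left out, where its log2 fold change was 1.08 to 1.31. The methods' t-test with adjustment did not call Gp9 either. Granulocyte-monocyte progenitor genes were all 8 below 0, none called, 5 at an unadjusted limma p under 0.05, with a median of -0.55 and a mean level of 4.84 to 5.28 in young and 4.00 to 4.84 in old CMPs. Among them were the granule proteins Mpo (-0.59), Elane (-1.02) and Prtn3 (-1.01).

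Monocyte and macrophage genes were below 0 in 5 of 6 cases, none called, 3 at an unadjusted limma p under 0.05, with a median of -0.45. F13a1, the factor XIII A-chain, gave a log2 fold change of -1.11 and Ccr2, the CCL2 receptor, one of -0.99, and their mean list level was 1.49 to 2.28 in young and 0.95 to 1.74 in old CMPs. Erythroid genes were above 0 in 2 of 9 cases (median -0.24) and neutrophil genes in 2 of 6 (median -0.13). Lymphoid genes were above 0 in 2 of 7 (median -0.14) and dendritic cell genes in 1 of 3 (median -0.01). None of these was called. The neutrophil genes Cxcr2 (1.02) and Mmp8 (-1.03) had an unadjusted limma p under 0.05, in opposite directions. Among the genes of these lists that were too dim to be tested were the neutrophil Ltf and Ngp and the lymphoid Ebf1, Pax5, Igll1, Rag1 and Rag2. Young replicate 3 stood apart in the erythroid list, with a mean log2 level of 0.55 against -1.34 to -0.89 on the other young arrays and -1.74 to -0.59 in old CMPs. The part of such cells in the levels of the surface markers was not tested.

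**Figure D5:**
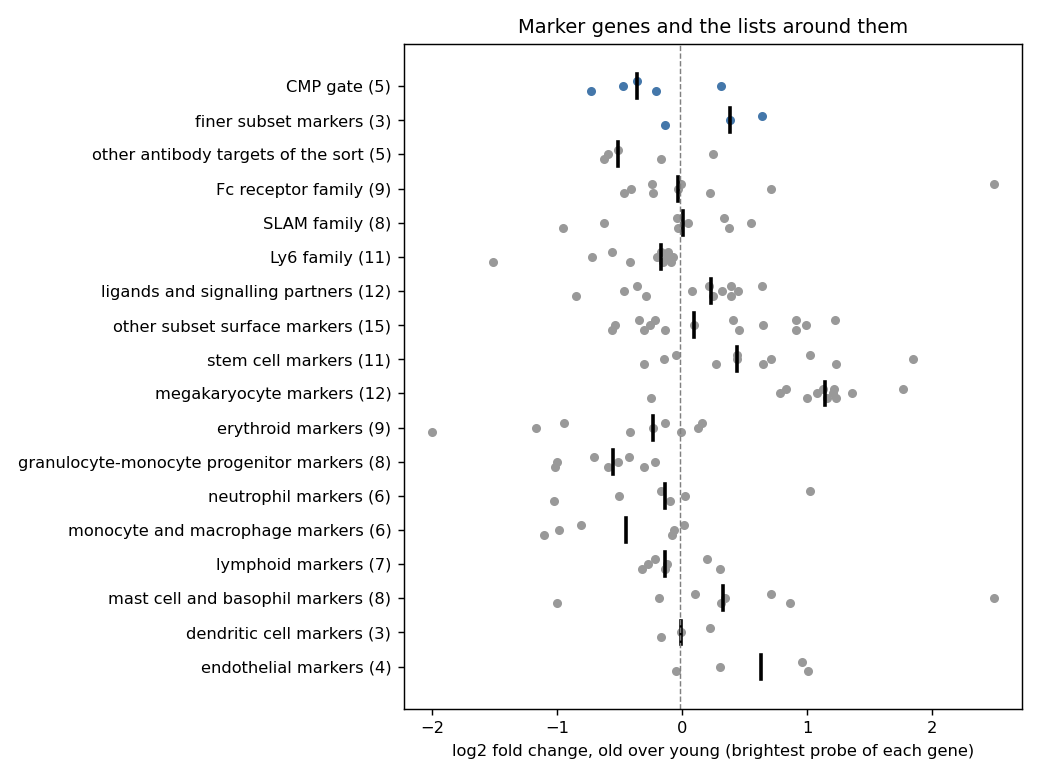
Log2 fold change of old over young CMPs for the brightest probe of each tested gene, by list, with the number of tested genes in brackets; black bars are list medians, the dashed line is the median of all tested probes, and the CMP gate and finer subset markers are in blue. The marker genes lie between -0.73 and 0.64, and the megakaryocyte list has its median at 1.14.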

How the data were processed

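Each of the 8 arrays was read as deposited by the authors: intensity values per spot on a linear scale, background-corrected by Agilent Feature Extraction 10.7.3.1, with probe coordinates in mm9. The deposited series table of log2 values, percentile-shifted and baseline-centred per the methods, served as an alternative. The log2 of each non-control spot was taken relative to the 75th percentile of such spots on its array. Outlier spots (141 to 230 per array) were dropped, and a probe's remaining spots averaged. Probes well above background on at least 4 of 8 arrays (33495) were fitted with limma 3.58.1 (R 4.3.3), age being the only term, and p-values were adjusted by Benjamini-Hochberg. Groups came from the sample labels. Where a gene had several probes, the brightest stood for it. The number of arrays limits the precision. The fit was tested on simulated data.

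The marker genes and the gene lists were chosen with earlier results of these data known. Every marker probe is reported. Of the other lists, the text names called genes, the pair of genes with the largest change and the gene with the brightest probe, and of cell type lists examples; some genes that this would name are not reported here. Same-numbered young and old arrays did not deviate together (r = -0.09, -0.14 and 0.15), so the numbers were not taken as pairs. Alternatives were normexp, quantile and median scaling, other filters, the mean of probes, the methods' t-test, limma variants, blocks for slide and replicate number, and leaving arrays out. Within-slide values stand beside the results of the tested marker probes.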

Additional observations from a re-analysis of the deposited data

Results flagged for a closer look

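Among 110 groups of 4 arrays checked in the marker genes and in the genes named beside them, 5 held 1 array far from the other 3, and chance alone gives such an array in about 1 of 20 groups. None of these was a marker gene. Ptprc was at -0.49 on young replicate 4 and at -0.06 to -0.02 on the other young arrays, on the log2 scale. Itgam was at 4.52 on old replicate 5 and at 5.31 to 5.44 on the other old arrays. Slamf7 was at -3.34 on young replicate 3 and at -4.24 to -4.09 on the other young arrays. Psca was at -3.55 on old replicate 4 and at -4.98 to -4.80 on the other old arrays, and Mmp8 was at -4.28 on the same array and at -3.03 to -2.93 on the others.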

How the results depend on the processing

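No marker gene was called under 13 of 15 other settings or in any of 24 fits with arrays left out. The exceptions were the unadjusted tests, the methods' t-test and limma, each of which called 1 gene, Ly6a (log2 fold change -0.73 in both). Every tested marker probe kept its direction in all other settings fitted over both slides, except the dimmer Cd34 probe, which turned positive in 5 of 24 leave-out fits (from -0.50 to 0.0989). For Il7r, not tested, the log2 difference between the mean levels moved from -0.95 to 0.0678 with normexp. Genes called higher in old CMPs numbered 48, and 75 with normexp, 24 without the filter, 0 and 590 by the methods' t-test with and without adjustment, 777 by unadjusted limma, 77 with an intensity trend, 190 with array weights and 12 with the replicate number as a block. Genes called lower numbered 10, and 21, 2, 0, 360, 632, 15 (trend), 89 (weights) and 1 (block) in the same settings. They numbered 3 with quantile scaling, 5 with a median shift, 6 in the authors' table and 4 with slide as a block. With probes above background on all 8 arrays or on all 4 of an age they numbered 6 and 17. Called genes of the lists numbered 3, and 7 with normexp, 1 without the filter, 0 and 36 by the methods' t-test with and without adjustment, 40 by unadjusted limma, 8 with the trend, 10 with weights, 0 with the replicate block and 1 with the slide block. Leaving arrays out gave 8 to 37 genes higher, 1 to 6 lower and 0 to 2 list genes. Array number limits all of these, and the causes were not tested.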

Other observations

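Further lists describe cells on either side of the CMP gate. Of 11 tested stem cell genes 8 were above 0 and 5 had an unadjusted limma p under 0.05, with a median log2 fold change of 0.44, and the mean level of the list was -0.88 to -0.45 in young and -0.16 to 0.06 in old CMPs. Hoxb5, a homeobox gene of long-term stem cells, had a dim probe, well above background on 3 young and 4 old arrays. Its log2 level was -4.80 to -4.16 in young and -2.82 to -2.38 in old CMPs. Hoxb5 was called (log2 fold change 1.85, SE 0.20, limma adjusted p = 0.00707). This call was lost with normexp (log2 fold change 0.90, limma adjusted p = 0.0560), with the replicate number as a block (limma adjusted p = 0.120), in the methods' t-test with adjustment and in 14 of 24 fits with arrays left out. Esam, an adhesion protein of stem cells and endothelium, gave 1.23 (limma adjusted p = 0.168) and Pdzk1ip1 gave 1.02 (limma adjusted p = 0.0936), and their ages did not overlap. The 3 tested genes below 0 were Procr (-0.30), Mllt3 (-0.14) and Fgd5 (-0.05).

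Mast cell and basophil genes were above 0 in 6 of 8 cases (median 0.33), 3 had an unadjusted limma p under 0.05, all higher in old CMPs, and Fcer1a was the single one called. Cpa3, the mast cell carboxypeptidase, was at 1.20 to 1.94 in young and 2.23 to 3.04 in old CMPs (log2 fold change 0.86, limma adjusted p = 0.326). Cma1, a mast cell chymase, was dim and gave -1.01 (limma adjusted p = 0.983), and Hdc, the histamine-forming enzyme, gave 0.10. Endothelial genes were above 0 in 3 of 4 cases with a median of 0.63, none called and 2 at an unadjusted limma p under 0.05. The gene below 0, Kdr, gave -0.05 on its brighter probe and 0.86 (limma adjusted p = 0.432) on the other. Tie1 gave 1.01 (limma adjusted p = 0.211) and Emcn 0.96 (limma adjusted p = 0.187), whereas Cdh5, an endothelial cadherin, did not reach the filter on dim probes.

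F11r, encoding the junctional adhesion molecule JAM-A, was chosen after its values were seen, because it stood against its neighbours between Fcgr3 and Slamf1. Its log2 level was 0.75 to 1.53 in young and 1.77 to 2.06 in old CMPs, with a log2 fold change of 0.94 (SE 0.21, limma adjusted p = 0.164).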
